A study of Homo sapiens with 6 samples.

Results

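Receptor tyrosine kinases are the membrane receptors through which growth factors, insulin, ephrins and related ligands act on a cell. Genes of this family were chosen by name from a list of 54, and 45 had a probe set paired with their symbol on the array, out of 14884 named genes. Where a gene had several probe sets, the one with the highest mean over the 6 arrays was taken. The 9 others (ERBB2, PDGFRA, PDGFRB, NTRK2, NTRK3, MUSK, TEK, EPHB2 and ROS1) were not analysed here.

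The arrays measured total RNA of HCT116, an established human colorectal carcinoma line, in 2 groups of 3. The sample titles spell the line HTC116 and the microRNA miR1966, while the culture protocol and the genotype field give HCT116 and miR-196b, which are used here. One group was stably transduced and is labelled as overexpressing miR-196b, and the other was stably transduced with an empty vector. The vector, its promoter and whether the cells were clones or pools are not given in the sources used here. The title of the series ties the microRNA to migration and metastasis through HOXB7 and GALNT5, and the comparison here asks whether the receptors for migration and growth signals differed between the same cells.

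Most receptors of this family bind a ligand outside the cell, act in pairs and phosphorylate tyrosines on the tails of the pair. Adaptors such as GRB2 dock there and pass the signal to the MAP kinases, to PI3 kinase and to STAT factors, while Sprouty, SOCS and LRIG proteins restrain it. In intestinal epithelium, EGFR and MET drive growth and repair and EPHB receptors sort cells along the crypt.

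The microRNA named in the labels acts through its seed, bases 2 to 8 from the 5′ end, in capitals in both mature sequences (RefSeq, GRCh38.p14), which are shown to compare the form named in the labels with the form whose gene gave the larger signal change. The first comes from MIR196B, at chr7:27169528-27169549 on the minus strand, and the second from MIR196A2, at chr12:53991762-53991783 on the plus strand. The second is also encoded, with the same letters, by MIR196A1, at chr17:48632532-48632553 on the minus strand.
hsa-miR-196b-5p: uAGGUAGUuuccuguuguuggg
hsa-miR-196a-5p: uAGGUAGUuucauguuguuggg
They share the seed and differ at a single base, C12A from miR-196b-5p to miR-196a-5p, counted from the 5′ end. In the arrays labelled miR-196b, the MIR196B probe set averaged 8.05 ± 0.144, against 7.97 ± 0.102 in empty-vector arrays (log2 signal, SD, n = 3 each; limma adjusted p = 0.819). MIR196A2 averaged 10.61 ± 0.149 in the labelled arrays and 3.06 ± 0.167 in empty-vector arrays (limma adjusted p = 4.53e-07). The gene named in the labels thus showed no change that passed the test. Of the genes named in the series title, GALNT5 was lower in the labelled arrays by limma (change -1.09, adjusted p = 0.0233), and HOXB7 had a change of -0.64 with separated groups that did not pass (adjusted p = 0.0974). Every direction below refers to how the arrays were labelled. No sequence of the receptor transcripts was searched for the seed.

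No receptor gene passed the test. Of the 45, 0 were called by limma at an adjusted p below 0.05, where 0.0559% of the 16098 named probe sets were, and the smallest adjusted p was 0.39. At an unadjusted p below 0.05 there were 3 receptor genes (6.7%), all 3 higher in the labelled arrays, where 9.87% of all named probe sets passed in either direction and 5.73% on the higher side. The groups did not overlap for 5 receptor genes (11.1%), again all higher, where 17.2% of all named probe sets were separated and 10.0% on the higher side. These shares lie near or below those of the whole array. Direction leaned one way: 31 of the 45 had a change above 0 (68.9%), where 52.0% of all named probe sets had, and the median change was 0.059, against 0.007 over all named probe sets (log2). The median level of the 45 on each array overlapped between groups. It was 5.77, 5.89 and 5.88 in labelled arrays and 5.57, 5.99 and 5.77 in empty-vector arrays, with a within-group SD of 0.154. The genes share the same 6 arrays, so the count is a description and its genes are not independent.

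The arrays bounded most changes in signal closely. The 95% interval lay within 1.5-fold either way for 43 of the 45 receptor genes (95.6%), as it did for 88.1% of all named probe sets. These were 22 of the 23 above the named probe sets' median empty-vector level and 21 of the 22 dimmer ones. An interval bounds the signal of a probe set. Whether the dim probe sets could have shown a change in RNA was not tested. ROR2 and CSF1R were the exceptions at 1.5-fold, with upper limits of 0.73 and 0.59 (log2). Changes ran from -0.14 at EPHA2 to 0.36 at ROR2. The median within-group SD was 0.113 among receptor genes above the named probe sets' median empty-vector level and 0.168 among the dimmer ones.

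**Figure D1:**
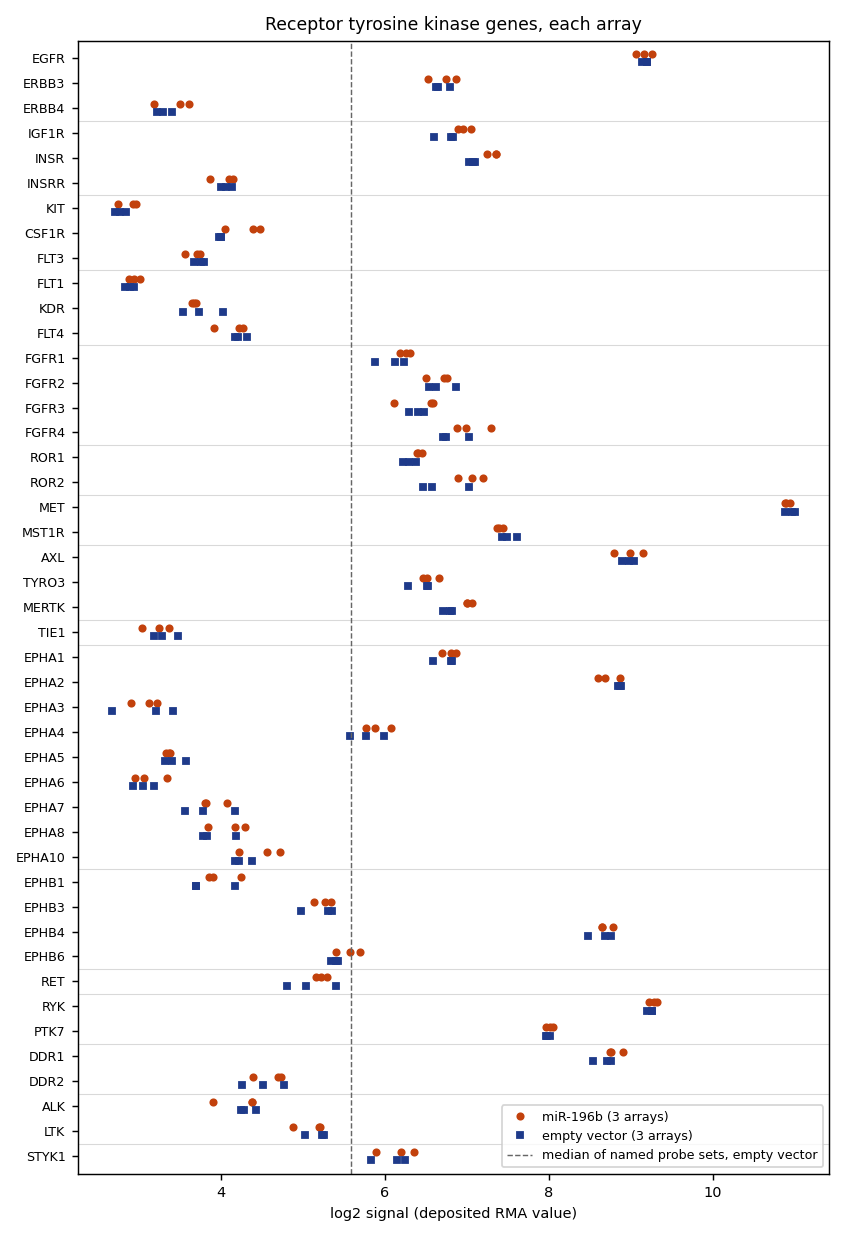
Log2 signal of the 45 receptor genes on each array, with the 3 labelled miR-196b arrays as circles above the 3 empty-vector arrays as squares, and genes grouped by family between grey lines. The dashed line is the median of all named probe sets in empty-vector arrays, 5.59; 23 receptor genes lie above it, MET farthest at 10.94.

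In empty-vector cells, 23 of the 45 genes (51.1%) gave a signal above 5.59, the median of all named probe sets. Probe sets differ in how well they bind, so a level says that signal was present and not how much RNA one gene had against another. As a yardstick chosen after the values were seen, 14 measured markers of endothelial, blood, fibroblast and neural cells ran from 2 to 7.71 in empty-vector arrays, the highest being CD68. Of these 14 markers, 4 lay above 5.59 too, so a level above that cut is a weak sign of expression. Above all 14 markers lay 8 receptor genes. These 8 were MET, RYK, EGFR, AXL, EPHA2, DDR1, EPHB4 and PTK7. That count rests on CD68 alone, since the next highest marker was ESAM at 6.1 in empty-vector arrays. Receptor genes down to ROR1, number 20 of the 45 by empty-vector level at 6.3, lay above ESAM. Of 11 measured epithelial markers, 7 lay above 5.59 in empty-vector arrays, with CLDN7 at 11.21 ± 0.0667 in labelled arrays and 11.32 ± 0.0236 in empty-vector arrays, and KRT18 at 11.06 ± 0.028 and 11.29 ± 0.0272 in the same order (log2, SD, n = 3 each). The 4 below it were CEACAM5, a colon surface antigen, at 3.21 and 3.14, the villus protein VIL1 at 4.18 and 4.13, the differentiation keratin KRT20 at 4.31 and 4.64, and the gut transcription factor CDX1 at 5.2 and 5.21, again labelled arrays first.

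MET, the receptor for hepatocyte growth factor and a driver of cell scattering, read 10.93, 10.88 and 10.89 in the labelled arrays, against 10.88, 10.96 and 11 in empty-vector arrays. The groups overlapped, and they differed by -0.04 (limma adjusted p = 0.869), with -0.21 and 0.13 as the 95% limits. Its ligand gene HGF was dim in both groups, at 3.16 ± 0.0299 in labelled and 3.2 ± 0.174 in empty-vector arrays. MST1R, the related receptor for macrophage-stimulating protein, had 2 probe sets, both overlapping between groups, with changes of -0.1 and -0.04. The brighter of these averaged 7.4 ± 0.0339 in labelled and 7.51 ± 0.0891 in empty-vector arrays.

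EGFR, the receptor for EGF, epiregulin and amphiregulin, read 9.16, 9.06 and 9.26 in the labelled arrays, against 9.19, 9.19 and 9.13 in empty-vector arrays. Its change was -0.01 with a 95% interval of -0.2 to 0.17, so the labelled group spanned the values of the other. ERBB3, a neuregulin receptor with a weak kinase of its own, averaged 6.72 ± 0.172 and 6.69 ± 0.0912, labelled arrays first. ERBB4, also a neuregulin receptor, was dim at 3.44 ± 0.224 in labelled and 3.31 ± 0.0955 in empty-vector arrays. Among ligands of this family, EREG, which encodes epiregulin, was bright at 11.83 ± 0.0498 and 11.77 ± 0.0526, and EGF itself dim at 3.77 ± 0.0106 and 3.82 ± 0.0144, labelled arrays first in both. BTC, betacellulin, read 6.09, 6.03 and 6.13 in the labelled arrays, against 5.66, 5.87 and 5.83 in empty-vector arrays, a change of 0.3 with separated groups that did not pass (limma adjusted p = 0.382).

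The smallest p among the receptors was that of INSR, the insulin receptor. It read 7.35, 7.25 and 7.35 in the labelled arrays, against 7.1, 7.08 and 7.02 in empty-vector arrays. The groups did not overlap, and the difference of 0.25 (SE 0.07, 95% interval 0.08 to 0.42, 1.19-fold) had an unadjusted limma p of 0.00985 and an adjusted p of 0.39. IGF1R, the receptor for the insulin-like growth factors, was separated as well. It read 7.05, 6.95 and 6.89 in the labelled arrays, against 6.6, 6.81 and 6.83 in empty-vector arrays, a change of 0.22 (SE 0.09, adjusted p = 0.504). INSRR, an alkali-sensing relative, was dim at 4.04 ± 0.145 in labelled and 4.07 ± 0.0718 in empty-vector arrays, with overlapping groups. The substrates that relay these receptors differed little: IRS1 had a change of -0.03 (95% interval -0.19 to 0.13) and IRS2 of 0.01 (-0.16 to 0.19). IGF1 was dim, at 3.28 and 3.27 in labelled and empty-vector arrays.

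The TAM receptors bind GAS6 and protein S and take part in the clearance of dying cells and in cell survival. MERTK read 7, 7.06 and 7 in the labelled arrays, against 6.8, 6.82 and 6.71 in empty-vector arrays. Its groups were apart by 0.24 (SE 0.07, 95% interval 0.08 to 0.41, 1.18-fold), with an unadjusted limma p of 0.0104 and an adjusted p of 0.39. AXL was bright and read 8.99, 8.79 and 9.15 in the labelled arrays, against 9.03, 8.89 and 8.98 in empty-vector arrays. Its change was 0.01, with an interval of -0.24 to 0.26, and TYRO3 had 0.1 with overlapping groups. GAS6, the ligand of all 3, had the smallest p of the 63 measured ligands, in the opposite direction. It read 7.61, 7.59 and 7.53 in the labelled arrays, against 7.98, 7.86 and 7.92 in empty-vector arrays. That difference of -0.34 (SE 0.07, 1.26-fold lower) did not pass (limma adjusted p = 0.318), and protein S, PROS1, had 0.09 (adjusted p = 0.753).

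**Figure D2:**
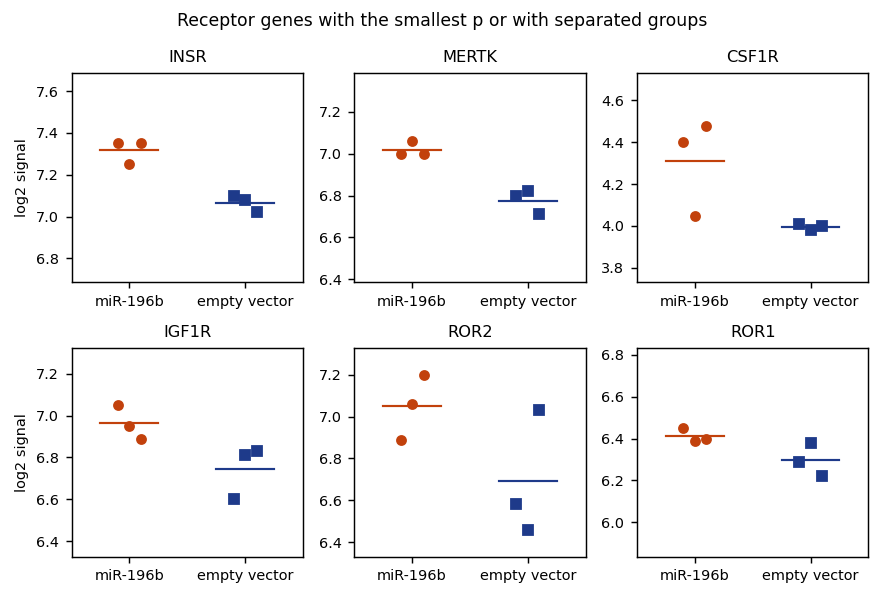
Log2 signal on each array for 6 receptor genes, with labelled miR-196b arrays left of empty-vector arrays, bars at the group means and axes that all span 1 log2 unit. INSR, MERTK, CSF1R, IGF1R and ROR1 have groups that do not overlap, and ROR2 has 1 empty-vector array at 7.03 among the labelled values.

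ROR1 and ROR2 are receptors for WNT5A that act apart from beta-catenin. ROR2 had the widest change of the 45, reading 6.89, 7.06 and 7.2 in the labelled arrays, against 6.58, 6.46 and 7.03 in empty-vector arrays. The third empty-vector array overlapped the labelled ones, and the change of 0.36 (SE 0.16, 95% interval -0.01 to 0.73) had a limma adjusted p of 0.507. ROR1 was separated by a narrow margin, with 6.45, 6.39 and 6.4 in the labelled arrays, against 6.29, 6.38 and 6.22 in empty-vector arrays (change 0.11, adjusted p = 0.644). RYK, a WNT receptor with an inactive kinase, read 9.32, 9.28 and 9.22 in the labelled arrays, against 9.2, 9.26 and 9.26 in empty-vector arrays. PTK7, an inactive kinase of planar cell polarity, read 8.01, 7.96 and 8.05 against 7.96, 7.97 and 8.01 in the same order. Both had overlapping groups, and their intervals of -0.13 to 0.2 and -0.13 to 0.19 were among the narrowest of the family.

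All 4 fibroblast growth factor receptors gave signal above 5.59, the median of all named probe sets. FGFR4, the receptor for the gut hormone FGF19, read 6.88, 6.99 and 7.29 in the labelled arrays, against 6.71, 6.75 and 7.03 in empty-vector arrays. FGFR1 read 6.26, 6.31 and 6.18 in the labelled arrays, against 5.88, 6.12 and 6.23 in empty-vector arrays. Groups overlapped for both, with changes of 0.22 (adjusted p = 0.622) and 0.17 (adjusted p = 0.618), and FGFR2 and FGFR3 had changes of -0.01 and 0.03. FGF19 itself was separated, at 9.1, 8.84 and 9.43 in the labelled arrays, against 8.6, 8.62 and 8.73 in empty-vector arrays. Its change of 0.47 (SE 0.14) did not pass either (limma adjusted p = 0.407), and KLB, the co-receptor that FGF19 needs in liver, was dim at 3.03 and 2.82, labelled arrays first.

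Ephrin receptors bind ligands on neighbouring cells and steer attachment and repulsion. Of the 13 measured, 10 had a change above 0 and 3 below (52.0% of all named probe sets lay above 0), 0 were separated (17.2% of all were), and the median change was 0.059, that of all 45 receptors as well. EPHA2, an ephrin-A receptor of epithelia, read 8.6, 8.68 and 8.86 in the labelled arrays, against 8.88, 8.84 and 8.86 in empty-vector arrays (change -0.14, adjusted p = 0.617). EPHB4, a receptor for ephrin-B2, read 8.78, 8.65 and 8.64 in the labelled arrays, against 8.75, 8.68 and 8.47 in empty-vector arrays, and its ligand EFNB2 had a change of 0.17 (adjusted p = 0.622). EPHB6, whose kinase is inactive, read 5.7, 5.58 and 5.4 in the labelled arrays, against 5.43, 5.35 and 5.4 in empty-vector arrays (change 0.17, adjusted p = 0.59). EPHA10, also without kinase activity, was dim and read 4.22, 4.56 and 4.72 in the labelled arrays, against 4.22, 4.18 and 4.38 in empty-vector arrays (change 0.24, adjusted p = 0.591). The groups of these 4 overlapped. EPHA1 and EPHA4 lay above 5.59, the median of all named probe sets. EPHA3, EPHA5, EPHA6, EPHA7, EPHA8, EPHB1 and EPHB3 lay below it, the last at 5.25 in labelled and 5.22 in empty-vector arrays.

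DDR1, a collagen receptor of epithelia, read 8.75, 8.74 and 8.9 in the labelled arrays, against 8.75, 8.71 and 8.54 in empty-vector arrays. Its 4 probe sets, a pair of them with identical values, gave changes of 0.11 to 0.13, and groups were separated at 1. DDR2, the collagen receptor of mesenchymal cells, was dim at 4.6 ± 0.19 in labelled and 4.52 ± 0.255 in empty-vector arrays. RET (5.22 in labelled and 5.08 in empty-vector arrays), LTK (5.1 and 5.18) and ALK (4.23 and 4.33) lay below 5.59, the median of all named probe sets. STYK1, an atypical family member, lay above it (6.15 and 6.08). All 6 genes had overlapping groups at the probe set used.

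Receptors that mark blood, vessel and mast cells were dim. KIT averaged 2.88 ± 0.119 in labelled and 2.77 ± 0.0689 in empty-vector arrays, and FLT1, a VEGF receptor, 2.95 ± 0.0728 and 2.89 ± 0.056 in the same order. The other VEGF receptors KDR and FLT4, the angiopoietin receptor relative TIE1 and the blood progenitor receptor FLT3 averaged 3.22 to 4.14 in labelled and 3.32 to 4.24 in empty-vector arrays, with overlapping groups. Their ligands need not be dim: KITLG, stem cell factor, read 12.01, 12.05 and 11.94 in the labelled arrays, against 11.73, 11.85 and 11.77 in empty-vector arrays (change 0.22, limma adjusted p = 0.438). VEGFA averaged 7.2 ± 0.0946 in labelled and 7 ± 0.0682 in empty-vector arrays (adjusted p = 0.504). CSF1R, the macrophage colony-stimulating factor receptor, was the third receptor with an unadjusted p below 0.05. It read 4.4, 4.05 and 4.48 in the labelled arrays, against 4.01, 3.98 and 4 in empty-vector arrays. Groups were separated, but the second labelled array lay just above the others' range (change 0.31, SE 0.12, adjusted p = 0.476). Of 6 listed blood markers 3 were measured, with CD14 at 2.94 and 2.96, LYZ at 3.49 and 3.3 and CD68 at 7.51 and 7.71, labelled arrays first, and none was called. Their part in the CSF1R value was not tested.

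**Figure D3:**
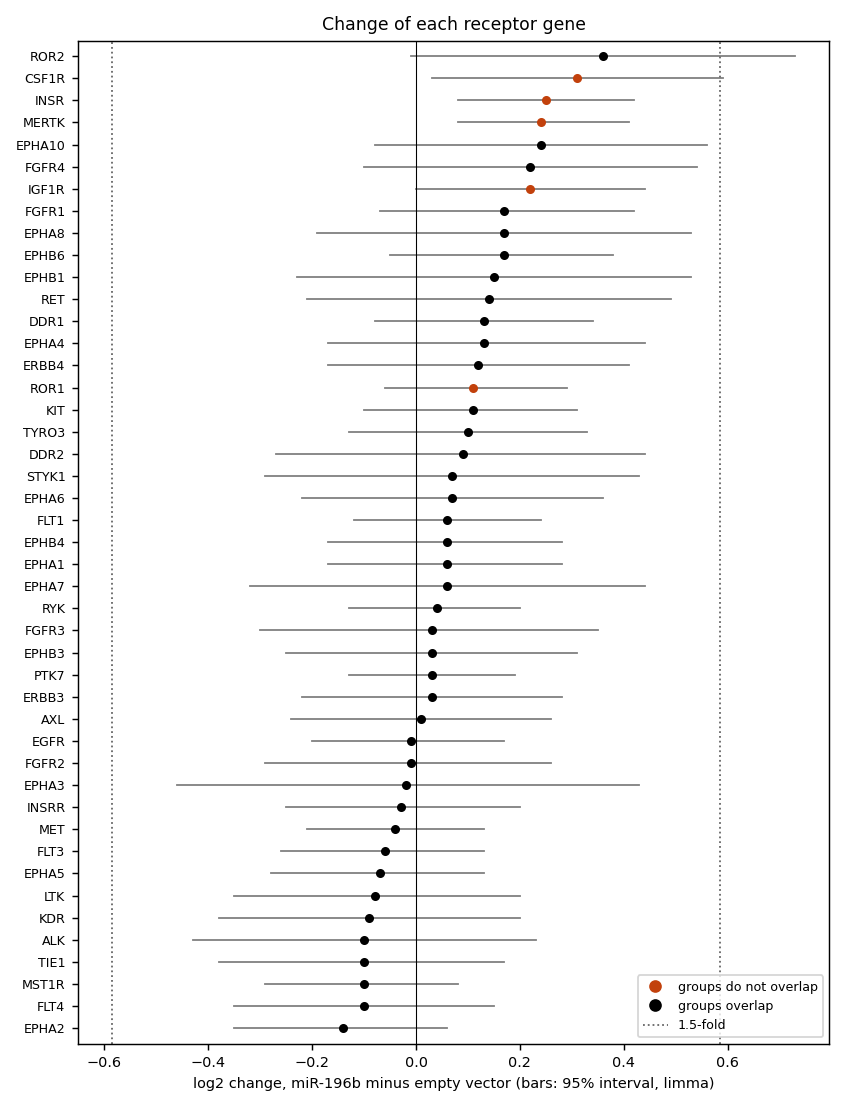
Log2 change of each of the 45 receptor genes, labelled miR-196b minus empty vector, ordered by size, with 95% limma intervals and dotted lines at 1.5-fold. Changes run from -0.14 (EPHA2) to 0.36 (ROR2), and the 5 orange points have groups that do not overlap.

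Around the receptors, 0 of 63 measured ligands (74 listed), 0 of 16 co-receptors and sheddases, 0 of 26 adaptors and relays (44 listed) and 0 of 17 restraints (36 listed) passed limma's test. Of all 16098 named probe sets 9 passed it (0.0559%), so 0 calls in lists of these sizes say little about the lists. At an unadjusted p below 0.05, the 4 lists had 4, 1, 2 and 2 genes above 0 and 3, 1, 2 and 0 below, in that order, where 9.87% of all named probe sets passed in either direction and 5.73% on the higher side. Ligands split evenly, with 30 above 0, 33 below and a median of -0.003. Co-receptors and sheddases had 8 each way and a median of 0.022. ADAM19, a metalloprotease that can shed neuregulin, had the smallest p among them and read 9.62, 9.78 and 9.61 in the labelled arrays, against 9.15, 9.28 and 9.22 in empty-vector arrays (change 0.45, adjusted p = 0.263). Next came NRP1, a VEGF co-receptor (-0.21, adjusted p = 0.504), the sheddase ADAM10 (0.19, adjusted p = 0.559) and KLB (0.21, adjusted p = 0.642).

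Adaptors and relays had 19 above 0 and 7 below, with a median of 0.042. STAT5A, a transcription factor of cytokine and growth factor signalling, read 3.5, 3.89 and 3.42 in the labelled arrays, against 4.23, 4.42 and 3.96 in empty-vector arrays. Its groups were apart, and its change of -0.6 (SE 0.16, adjusted p = 0.36) was at a dim probe set, with STAT5B, its near-identical neighbour in sequence, at -0.01. MAP2K2, a kinase above ERK, had -0.36 (adjusted p = 0.459), and the adaptor NCK2 and the relay SOS2 had 0.19 (adjusted p = 0.47) and 0.2 (adjusted p = 0.479). GRB2 and SHC1, which dock on most of these receptors, had changes of -0.1 and 0.04.

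Of the 17 measured restraints, 16 had a change above 0 (94.1%, where 52.0% of all named probe sets had), with a median of 0.121, and SOCS2 alone lay below 0. None passed limma's test, where 0.0559% of all named probe sets did. The groups of 3 were separated, all higher, where 10.0% of all named probe sets were separated on the higher side. The genes share the same 6 arrays, and the list was chosen with earlier results of these data known, so the count is a description. Across the alternatives that kept all 6 arrays and all 17 genes, 14 to 16 lay above 0, and with 1 array left out 13 to 16. SPRY4, a Sprouty feedback inhibitor, read 9.87, 9.82 and 10.01 in the labelled arrays, against 9.43, 9.49 and 9.4 in empty-vector arrays. SOCS1, an inhibitor of cytokine receptors, read 5.12, 5.31 and 5.2 in the labelled arrays, against 4.76, 4.93 and 4.97 in empty-vector arrays. Both were separated, with adjusted p = 0.251 and 0.383 in limma, and SPRY2 (0.25) and GRB10, an adaptor that restrains insulin signalling (0.25), had adjusted p = 0.504 and 0.529. ERRFI1, which binds and inhibits EGFR, was bright at 11.93 and 11.9 in labelled and empty-vector arrays, with a change of 0.03. The other listed restraints were not analysed here.

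**Figure D4:**
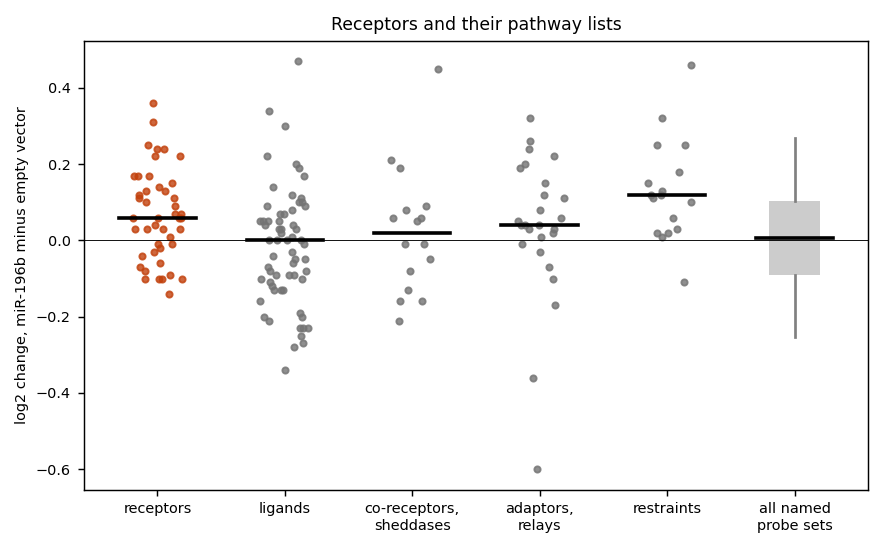
Log2 change, labelled miR-196b minus empty vector, of the 45 receptors, 63 ligands, 16 co-receptors and sheddases, 26 adaptors and relays and 17 restraints, each gene a point and black bars at the medians. The last column gives all 16098 named probe sets, with a box from the 25th to the 75th percentile and lines to the 5th and 95th; the restraints' median is 0.121 and that of all probe sets 0.007.

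Summed over the 11 measured epithelial markers, the log2 signal was 80.43 to 81.44 in labelled arrays and 81.24 to 82.09 in empty-vector arrays. Over the 14 markers of other cell types it was 59.64 to 61.03 and 59.2 to 60.89, labelled arrays first. No marker was called by limma (smallest adjusted p = 0.405 and 0.459), where 0.0559% of all named probe sets were. An unadjusted limma p below 0.05 was reached by 9.87% of all named probe sets in either direction, and by 666 of 16098 on the lower side. Below that cut, 3 epithelial markers (KRT18, KRT20 and CDX2) were lower in labelled arrays and the endothelial ESAM was higher. Of the 11 epithelial markers, 4 were separated on the lower side (KRT18, KRT20, CDX2 and CLDN7). On the higher side 1 was separated, CLDN4, an epithelial claudin (change 0.28, limma adjusted p = 0.504). Of all 16098 named probe sets, 1156 were separated on the lower side and 1616 on the higher side. The part of these markers in the receptor values was not tested. Labelled arrays first, the 2 brightest markers of each other list were the endothelial adhesion protein ESAM (6.38 and 6.1) and CLDN5 (4.87 and 5.1), the neural MBP (5.93 and 6.03) and SYP (5.51 and 5.65), and the fibroblast THY1 (4.85 and 5.01) and DCN (2.36 and 2.37).

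Promoters were read from RefSeq (GRCh38.p14) for the 39 receptor genes that had one, as the 250 bases before the start of the gene. The ratio of observed to expected CG pairs had a median of 0.84 over the 20 genes above the named probe sets' median level. It was 0.66 over the 19 at or below that level. Over all 39 it was 0.75, as it was over 10749 named genes, which were not split by level. A GC box, GGGCGG on either strand, was found in 18 of those 20, 14 of those 19 and 57.8% of the named genes. The median share of G and C bases was 70.8% over the 39 and 62.8% over the named genes. Its part in the GC box counts was not tested. The 4 promoters below run 5′ to 3′ on the gene's strand with CG pairs in capitals, from the 2 receptor genes with the smallest p and from the brightest and the dimmest receptor probe set. INSR is at chr19:7294415-7294664 (minus), MERTK at chr2:111898357-111898606 (plus), MET at chr7:116671946-116672195 (plus) and KIT at chr4:54657707-54657956 (plus).
INSR: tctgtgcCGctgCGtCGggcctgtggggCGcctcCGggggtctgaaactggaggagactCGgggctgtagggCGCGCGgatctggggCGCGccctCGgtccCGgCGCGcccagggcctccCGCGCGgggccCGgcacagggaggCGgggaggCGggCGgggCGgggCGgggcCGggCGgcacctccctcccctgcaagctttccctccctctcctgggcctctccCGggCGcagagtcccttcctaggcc
MERTK: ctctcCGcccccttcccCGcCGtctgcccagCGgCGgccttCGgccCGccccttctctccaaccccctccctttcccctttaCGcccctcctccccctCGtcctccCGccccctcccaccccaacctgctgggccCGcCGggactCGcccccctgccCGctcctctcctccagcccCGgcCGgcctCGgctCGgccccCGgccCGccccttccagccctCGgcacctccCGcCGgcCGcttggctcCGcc
MET: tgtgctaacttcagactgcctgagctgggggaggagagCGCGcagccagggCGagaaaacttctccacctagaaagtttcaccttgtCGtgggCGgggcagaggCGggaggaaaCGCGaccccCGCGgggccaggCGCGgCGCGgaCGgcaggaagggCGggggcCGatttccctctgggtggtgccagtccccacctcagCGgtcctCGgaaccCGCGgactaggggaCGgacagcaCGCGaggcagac
KIT: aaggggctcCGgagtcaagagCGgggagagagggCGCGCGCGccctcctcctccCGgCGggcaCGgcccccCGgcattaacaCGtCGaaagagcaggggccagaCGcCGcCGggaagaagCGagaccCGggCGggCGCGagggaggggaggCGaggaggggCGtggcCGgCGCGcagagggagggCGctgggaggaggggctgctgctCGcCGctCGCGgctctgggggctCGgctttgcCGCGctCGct
Each of the 4 holds a GC box, and they hold 28, 25, 24 and 34 CG pairs in the order given. KIT, the dimmest here, had a ratio of 0.97, above those of INSR (0.73), MERTK (0.87) and MET (0.84), and AXL, among the 8 brightest, had 0.16. A match is a description of these letters and says nothing of a factor bound there.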

How the data were processed

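Each of 6 arrays carried RNA of 1 culture, 3 labelled miR-196b and 3 empty vector, grouped by their titles. The authors deposited log2 values per probe set; per the submitters' processing notes they come from RMA and Partek 6.6, whose options are not given in the sources used here. RMA brings array distributions close together, which can remove an overall shift between groups. The deposited distributions were near equal and not identical, with medians of 4.342 to 4.372 over all probe sets. Log base 2 is that of RMA, and no genome build is given in the sources used here. Arrays correlated at r = 0.9892 to 0.9915 within groups and 0.9881 to 0.9903 between them across probe sets, and none repeated another. Probe sets were named through the platform annotation (16098 of 53617 with 1 symbol, 0 with several, 37519 with none here), with gene identifiers all matched to GRCh38.p14.

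The deposited values were fitted in R 4.3.3 with limma 3.58.1 (lmFit, eBayes, no filter, 4 residual and 3.23 prior degrees of freedom), labelled minus empty vector, with Benjamini-Hochberg adjustment over 16098 probe sets at 0.05. With 3 arrays a group, an exact permutation test (two-sided) has 0.1 as its smallest p, which any gene with separated groups reaches. Where nothing says that arrays came from separate transductions, p-values measure the spread between these samples. The fit was tested on simulated data. The receptor genes and lists were chosen with earlier results of these data known. Values per array were given for the 10 receptor genes with the smallest p and the 8 with the highest empty-vector level. They were also given for ROR1, outside that rule, whose groups were separated. The 4 genes with the smallest p of each pathway list were named. Other ligands, receptors and adaptors were named by their role after their values were seen. Alternatives were another filter, variance prior, normalization, array weights, replicate block, feature set, probe set rule and each array left out. Same-numbered arrays deviated from their group means with correlations of 0.03, 0.037 and 0.009, so the numbers were not taken as pairs. No slide or scan date was used, so no batch was tested; the number of arrays limits the precision.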

Additional observations from a re-analysis of the deposited data

How the results depend on the processing

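In all 15 alternatives 0 receptor genes were called by limma, with smallest adjusted p = 0.173 (INSR, dimmest 40% of probe sets left out, 27 receptor genes kept). The 3 genes at an unadjusted p below 0.05 became 5 with the replicate block, and 2 to 5 with 1 array left out (5 without labelled replicate 3 or empty-vector replicate 3); the cause was not tested. The replicate block changed no call. The median change of 0.059 ranged from 0.028 (without labelled replicate 1) to 0.085 (without labelled replicate 2), and the count above 0 from 29 to 33 where all 45 were tested. AXL and EGFR lay so near 0 that the sign turned: AXL was 0 with median centring and without labelled replicate 1, -0.01 with a repeated quantile normalization, -0.08 without labelled replicate 3 and -0.03 without empty-vector replicate 2, and EGFR 0.04 without labelled replicate 2. With 1 array left out, AXL ranged from -0.08 to 0.1, EGFR from -0.06 to 0.04 and EPHB4 from -0.03 (without empty-vector replicate 3) to 0.12. Over all 45 receptor genes, the sign turned for 8 without labelled replicate 1 and for 7 without empty-vector replicate 1. It turned for 3 or 4 without any other single array, and for 0 to 2 where all 6 arrays were kept. Separated receptor genes, counted under 4 of the alternatives and with no array left out, numbered 4 of 27 without the dimmest probe sets and 4 to 6 of 45 under the other 3. Neither these counts nor those at an unadjusted p below 0.05 were compared with all probe sets under the same alternative. They therefore do not say whether the receptor genes moved apart from the rest of the array. Levels above the median of all named probe sets (23 genes) became 8 above CD68, the highest marker of other cell types, a yardstick added after the data were seen. The count of 8 rests on CD68 alone, since the next highest marker, ESAM, lay at 6.1 in empty-vector arrays. The planned yardstick of olfactory receptors was not run, because 1 such probe set was named here.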
